A study of Mus musculus with 17 samples.

Results

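The ligands and receptors that steer growing axons were followed in sympathetic ganglia of mice with a point mutation in Alk. They were all genes on the array whose symbol began with Sema, Plxn, Robo, Slit and a digit, or Unc5, the numbered genes of the Eph receptors and ephrins of classes A and B, and Nrp1, Nrp2, Dcc, Neo1, Ntn1 and Ntn4. This rule took 66 of the 17306 probe sets, each of which stood for 1 gene. Of the 66, 3 share only the letters of a family name (Unc50, Unc5cl and the antisense transcript Plxna4os1), which left 63 guidance genes. They were 19 semaphorins, 11 plexins and neuropilins, 8 netrins and netrin receptors, 6 Slit and Robo genes, 7 ephrins and 12 Eph receptors. Robo2 and Ephb2 were not analysed here.

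The ganglia, superior cervical and stellate pooled, were hybridised to Affymetrix expression arrays for the mouse genome, 17 in all. All mice were labelled as strain C57BL/6. At birth (postnatal day 0, P0) there were 4 arrays of wild-type mice (Wt), 4 of mice with the F1178L mutation on 1 Alk allele (Het) and 4 with it on both (Hom), and 18 days after birth (P18) 3 arrays were Wt and 2 were Het. Alk encodes a receptor tyrosine kinase that sympathetic neuroblasts use as they form the ganglia. The mutation sat in the gene itself, as a knock-in of the mutated exon in 1 mouse line, so every cell that uses Alk carried it, and no Hom array at P18 was analysed. Whether the arrays of a group stand for separate animals is not in the labels, and all p-values therefore rest on the spread between samples, which may be technical. Values are log2 expression values, in which a difference of 1 is a change by a factor of 2, and levels of different genes were not set against each other.

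Axon guidance works through a small set of ligand and receptor families that growth cones read as attraction or repulsion. Secreted class 3 semaphorins bind neuropilins, which signal through plexins of class A, while most other semaphorins bind plexins directly. Netrins attract through Dcc and repel when an Unc5 receptor takes part, Slits repel through Robo receptors, and ephrins and Eph receptors signal in both directions where cells touch. In the mouse sympathetic system, Sema3a acting through Nrp1 is known to hold back axon growth and to help place the ganglia.

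The promoters of 2 plexin genes and 2 netrin receptor genes that were called in a mutant group at birth are shown to give their sequence context. Each window runs from 250 bases before to 50 bases after the transcription start, on the gene's own strand, from RefSeq for mouse build GRCm38.p6. Capitals mark the GC box, GGGCGG on either strand. The windows are chr1:194619579-194619878 (plus strand) for Plxna2, chrX:74328816-74329115 (plus) for Plxna3, chr10:60831532-60831831 (minus) for Unc5b and chr3:141465314-141465613 (plus) for Unc5c.
Plxna2: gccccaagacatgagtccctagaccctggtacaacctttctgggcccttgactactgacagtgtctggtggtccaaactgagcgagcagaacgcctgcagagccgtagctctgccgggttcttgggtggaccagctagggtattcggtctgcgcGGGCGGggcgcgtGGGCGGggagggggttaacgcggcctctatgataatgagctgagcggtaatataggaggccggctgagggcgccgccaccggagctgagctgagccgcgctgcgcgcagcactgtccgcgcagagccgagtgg
Plxna3: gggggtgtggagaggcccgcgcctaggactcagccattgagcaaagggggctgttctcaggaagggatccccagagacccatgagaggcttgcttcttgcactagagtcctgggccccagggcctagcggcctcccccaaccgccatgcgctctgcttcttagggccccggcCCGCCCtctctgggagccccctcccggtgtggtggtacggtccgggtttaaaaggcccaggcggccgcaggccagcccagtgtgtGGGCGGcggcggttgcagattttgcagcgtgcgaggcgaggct
Unc5b: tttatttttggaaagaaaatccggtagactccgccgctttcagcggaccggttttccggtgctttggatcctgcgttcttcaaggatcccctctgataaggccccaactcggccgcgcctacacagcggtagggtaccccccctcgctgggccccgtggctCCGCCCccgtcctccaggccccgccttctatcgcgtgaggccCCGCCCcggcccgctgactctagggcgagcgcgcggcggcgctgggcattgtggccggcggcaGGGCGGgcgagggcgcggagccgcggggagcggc
Unc5c: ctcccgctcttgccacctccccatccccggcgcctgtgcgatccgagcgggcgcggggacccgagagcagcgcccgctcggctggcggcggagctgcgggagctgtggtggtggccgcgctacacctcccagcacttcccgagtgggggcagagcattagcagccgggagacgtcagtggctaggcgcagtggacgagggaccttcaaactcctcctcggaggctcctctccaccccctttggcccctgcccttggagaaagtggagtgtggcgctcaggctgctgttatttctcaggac

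The windows of Plxna2 and Plxna3 each held 2 GC boxes, that of Unc5b held 3 and that of Unc5c none. All 4 were rich in G and C, at 64.7% (Plxna2), 67.7% (Plxna3), 69.7% (Unc5b) and 68.3% (Unc5c), where the median of all 32851 windows was 52.7%. A GC box was found in 75.0% of the 68 windows of 55 genes of the rule and in 35.7% of all windows. The E-box, CANNTG, is bound by bHLH factors, and it was in none of these 4 windows, in 47.1% of the windows of the rule's genes and in 72.3% of all. A TATA box, TATAAA, was in 2.94% and 13.6%. The core of the cAMP response element, TGACGT, was found once, in the Unc5c window, and in 5.88% of the rule's windows and 7.51% of all. The homeodomain core TAATTA was in 4.41% and 5.29%. Both strands were searched, no motif's letters contain those of another, and a match describes letters only.

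Array medians ran from 4.41 to 4.68 and arrays correlated with the others of their own group at a mean of 0.951 (P0 Hom replicate 12) to 0.993. The mean of 6 markers of sympathetic neurons was between 10.31 and 10.94 in every array, while 1 of them, Hand2, stayed at 4.31 to 4.82, near the array medians. Transcripts of other cells were present too, and their marker medians differed between groups with partial overlap. Relative to each gene's mean over all arrays, the median of 8 fibroblast markers was 0.59 to 1.39 in P0 Wt, -0.06 to 0.38 in P0 Het, -0.49 to 1.01 in P0 Hom and -1.70 to -1.29 at P18. Dcn, 1 of the 8, lay higher in all P18 arrays than in any P0 array. The median of 5 glia markers was -0.83 to 0.45 in P0 Wt, -0.53 to -0.35 in P0 Het and -0.81 to -0.35 in P0 Hom, with Erbb3 not past the filter. Among these 5, Foxd3 was at 5.46, 4.01, 5.57 and 5.06 in P0 Hom, against 3.92 to 4.69 in P0 Wt. The median of 6 macrophage and leukocyte markers was 0.01 to 1.39 in P0 Wt, -0.53 to 0.09 in P0 Het and -0.25 to -0.10 in P0 Hom, with Cd68 and Cx3cr1 not past the filter. The median of 8 skeletal muscle markers ran from -2.64 to 5.32 within P0 Wt alone, and that of 5 fat markers from -2.69 to 4.33 within P0 Hom. The median of 4 sensory neuron markers was 0.98 and 1.39 in P0 Wt replicates 1 and 4 and -0.51 to 0.04 in the other 15 arrays, with Scn10a, Isl2 and Tlx3 not past the filter. Of these 4, Pou4f1 (5.94 and 5.40) and P2rx3 (6.16 and 7.58) were highest in replicates 1 and 4. Prph lay at 12.86 to 13.73 in every array, and Ntrk2 was not raised in Wt replicate 1 (4.22). In such bulk tissue, fewer cells of a type and less RNA per cell cannot be told apart.

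Genes were tested where 2 or more of the 17 arrays gave a log2 value above 4, which 9973 probe sets met. Of the 66 genes of the rule, 37 passed, namely 36 guidance genes and Unc50, and 27 of these lay above 4 in all 17 arrays. No gene passed through 1 group alone, but some passed through 1 age alone. Sema3e lay above 4 only in P18 arrays, and Efna2, Ephb3, Robo4, Sema5a and Unc5d only in P0 arrays. In the semaphorin and netrin systems, receptors passed more often than ligands. All plexins and neuropilins but Plxna1 passed (10 of 11), whereas 8 of 19 semaphorins did, and neither Sema3a nor Sema3f, the usual ligands of Nrp1 and Nrp2, was among them. Sema3a lay between 2.22 and 2.27 and Sema3f between 2.15 and 2.18 in all 17 arrays. The netrins Ntn1 (2.24 to 2.72) and Ntn4 (2.21 to 2.27) also stayed low, while 5 of 6 of their receptors on the array passed, Unc5a being the other. Slit1 (1.69 to 1.71) and Epha4 (2.37 to 2.61) did not pass, nor did 8 of 12 Eph receptors in all. Such values near the floor of the array give no order between samples and do not show that a transcript is absent. Epha3, a receptor for class A ephrins, missed the filter with 1 array, P0 Hom replicate 11 at 4.88, and its other Hom arrays were at 3.82, 3.05 and 3.53 while no other array of the series exceeded 3.10.

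At birth, a minority of the guidance genes changed with the mutation. In limma, with p-values adjusted over all 9973 probe sets and called under 0.05, 4 of the 37 tested genes of the rule were called in Het against Wt. Plxna2 and Plxna3 rose, where 1.8% of all probe sets were called higher, and Unc5c and Sema5a fell, where 1.3% were called lower. In Hom against Wt, 7 were called. Robo1, Plxna2 and Sema4f rose (5.16% of all higher) and Unc5c, Unc5b, Epha5 and Nrp1 fell (3.34% of all lower). The mean of both mutant groups against Wt gave 6 calls, 2 higher and 4 lower, beside 3.99% and 2.77% of all. The median difference of the 37 was -0.07 in Het and -0.08 in Hom, and that of all probe sets was 0.04 and 0.01. Hom and Het are set against the same 4 Wt arrays, so the values of both comparisons are not independent. With array weights 12 genes were called in Hom, and when each pair of groups was fitted alone, 1 was called in Het and 4 in Hom.

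**Figure D1:**
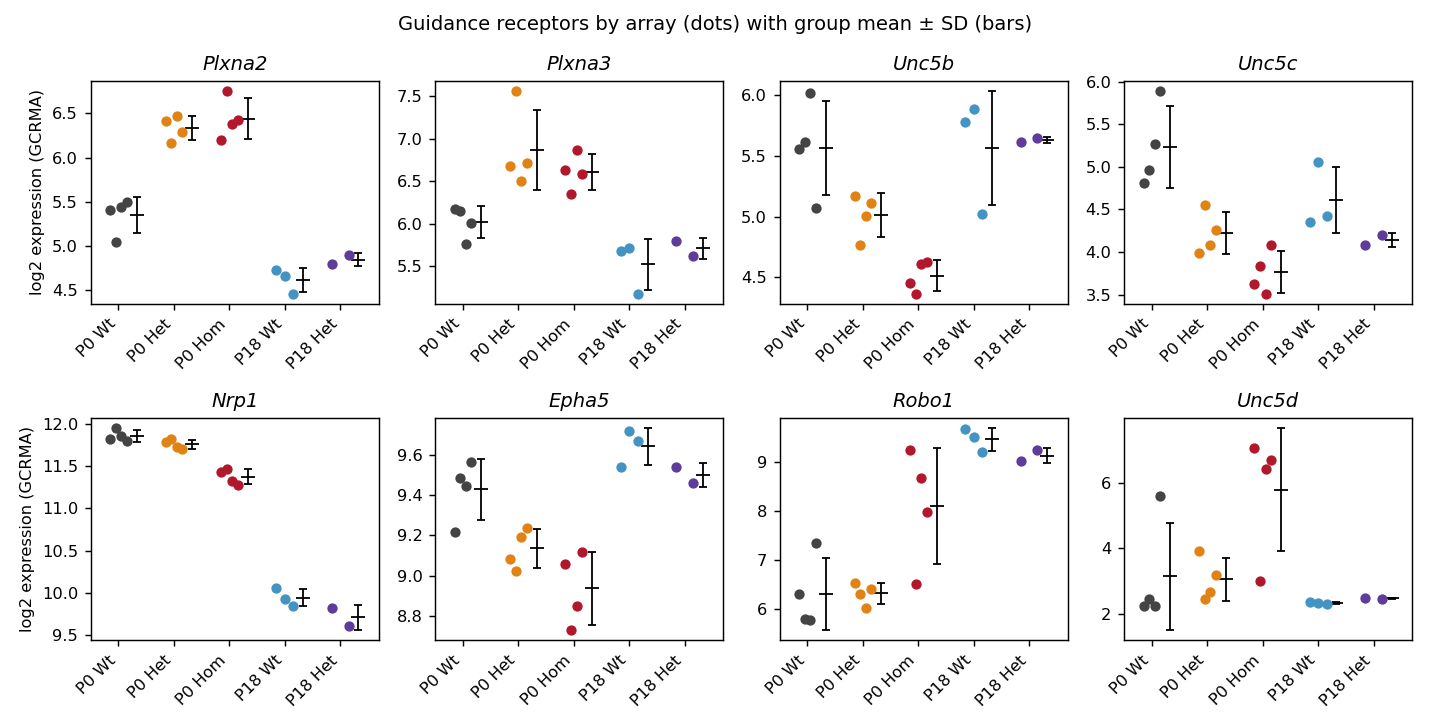
Log2 expression (vertical axes, GCRMA values, a separate range for each gene) of 8 guidance receptors in each of the 17 arrays (dots, by group), with bars for the group mean ± SD. For Plxna2 all 8 mutant arrays at birth, 6.16 to 6.75, lie above all 4 Wt arrays, 5.04 to 5.49, and Robo1 and Unc5d are high in the same 3 Hom arrays.

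Plxna2, a class A plexin that carries the signal of neuropilin-bound semaphorins, rose with 1 mutant allele and with both. Its values were 5.41, 5.04, 5.44 and 5.49 in the Wt arrays, 6.42, 6.16, 6.47 and 6.29 in Het and 6.19, 6.75, 6.38 and 6.43 in Hom. The mutant and Wt arrays did not overlap, and Het and Hom arrays overlapped each other. The difference was 0.99 ± 0.14 in Het (SE, adjusted p = 0.000962) and 1.09 ± 0.14 in Hom (adjusted p = 8.1e-05), or 1.98-fold and 2.13-fold. Hom exceeded Het by 0.10, with a 95% interval from -0.19 to 0.39. Both calls were kept under every alternative, with differences between 0.89 and 1.16 in Het and between 0.98 and 1.25 in Hom.

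Plxna3, another class A plexin, which pairs with Nrp2 in particular, also lay higher in every mutant array at birth. Wt arrays were at 6.17, 6.14, 5.76 and 6.00, Het at 6.68, 7.56, 6.50 and 6.71 and Hom at 6.64, 6.35, 6.86 and 6.59. The rise in Het was 0.85 ± 0.20 (adjusted p = 0.0328), with P0 Het replicate 6 the highest array of the series. In Hom the difference was 0.59 ± 0.20 and was not called (adjusted p = 0.0928). The Het call was lost without any 1 of 6 arrays, Wt replicates 2, 3 and 4 and Het replicates 5, 6 and 8, with differences of 0.61 to 0.91 and adjusted p-values of 0.0523 to 0.0859. It was also lost with no filter, with the compared arrays alone and with the methods' t-test (highest adjusted p over all alternatives 0.191). For the mean of both mutant groups Plxna3 rose by 0.72 ± 0.18, and without Wt replicate 3 that difference was 0.63 and not called (adjusted p = 0.0757).

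Nrp1, the ligand-binding partner of these plexins and a coreceptor for vascular endothelial growth factor, fell in Hom ganglia. It was at 11.82, 11.95, 11.86 and 11.80 in Wt, 11.78, 11.82, 11.72 and 11.71 in Het and 11.43, 11.46, 11.32 and 11.27 in Hom. All Hom arrays lay below all others of that age, and the spread within a group was small (SD 0.05 to 0.09). In Hom it fell by 0.49 ± 0.07 against Wt (adjusted p = 0.000341) and fell by 0.39 ± 0.07 against Het (adjusted p = 0.00503). Both differences held under every alternative. The Het difference from Wt was -0.10 ± 0.07 (adjusted p = 0.496). Nrp2, the other neuropilin, differed by -0.17 ± 0.09 in Het and -0.21 ± 0.09 in Hom, not called in either.

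Of the other plexins none was called against Wt. Plxna4, which mediates Sema3a signals in mouse sympathetic neurons, differed by -0.44 ± 0.20 in Het and -0.38 ± 0.20 in Hom (adjusted p = 0.242 and 0.271). Without P0 Wt replicates 1 and 4, Plxna4 was called lower in both. Plxnb1, a receptor for class 4 semaphorins, was at 6.61, 6.74, 6.39 and 6.19 in Wt, 6.98, 6.79, 6.87 and 6.82 in Het and 6.26, 6.05, 6.46 and 6.19 in Hom. It was highest in Het, where all arrays lay above all Wt and all Hom arrays. It fell by 0.62 ± 0.15 from Het to Hom (adjusted p = 0.0236), while the differences from Wt, 0.38 ± 0.15 in Het and -0.24 ± 0.15 in Hom, were not. That call was lost without any 1 of Het replicates 5, 7 and 8 or Hom replicate 9, with values of -0.64 to -0.59 and adjusted p-values of 0.0557 to 0.0669. Plxnd1, the receptor that binds Sema3e directly, differed by -0.48 ± 0.15 in Hom (adjusted p = 0.0628), with all Hom arrays below all Wt arrays.

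Among the netrin receptors, the repulsive Unc5 receptor Unc5c was called lower in Het and Hom and Unc5b in Hom only. The attractive receptor Dcc was not called. Unc5d, another tested Unc5 receptor, was 2.65 higher in Hom and not called, as given below. Unc5c was at 4.81, 4.96, 5.27 and 5.89 in Wt, 3.99, 4.55, 4.09 and 4.26 in Het and 3.63, 3.84, 3.51 and 4.08 in Hom. All mutant arrays lay below all Wt arrays, and most Hom arrays were under the value of 4 needed for testing, so the size of the fall is inexact. It fell by 1.01 ± 0.23 in Het (adjusted p = 0.0245) and fell by 1.47 ± 0.23 in Hom (adjusted p = 0.000543), a 2.77-fold difference in Hom. Hom minus Het was -0.46, with a 95% interval from -0.95 to 0.03. The Het call was lost without any 1 of Wt replicate 3 and Het replicates 5, 7 and 8, where the difference was -1.02 to -0.93 (adjusted p = 0.0516 to 0.0791). It was also lost with the compared arrays alone and with the methods' t-test (highest adjusted p over all alternatives 0.16). The Hom call was lost with the methods' t-test alone (adjusted p = 0.0729).

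Unc5b, a netrin receptor that endothelial cells also use, was at 5.56, 5.62, 6.02 and 5.07 in Wt, 5.17, 4.76, 5.00 and 5.11 in Het and 4.45, 4.36, 4.61 and 4.63 in Hom. Hom arrays lay below all Het arrays and all Wt arrays, and Het overlapped Wt through Wt replicate 4. In Hom it fell by 1.05 ± 0.20 (adjusted p = 0.0029), or 2.07-fold. That call was lost with the methods' t-test alone (adjusted p = 0.0845). The Het difference was -0.55 ± 0.20 and was not called (adjusted p = 0.154), nor was that between Hom and Het (-0.50 ± 0.20, adjusted p = 0.154). The medians of 6 endothelial markers were 0.21 to 0.94 in Wt and 0.43 to 0.87 in Hom arrays. These markers did not move together. Kdr was at 4.42 to 5.36 in Wt and 5.48 to 5.76 in Hom, and Cldn5 at 5.94 to 7.26 and 4.75 to 6.34. The part of endothelial cells in the Unc5b difference was not tested. For the mean of both mutant groups, Unc5b fell by 0.80 ± 0.18 (adjusted p = 0.00954).

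Dcc was highest in Het ganglia, at 7.94, 7.73, 7.76 and 7.88, against 7.67, 7.48, 6.82 and 7.11 in Wt and 7.62, 6.87, 7.43 and 7.65 in Hom. All Het arrays lay above all arrays of the other genotypes at birth. The differences were 0.56 ± 0.18 in Het against Wt (adjusted p = 0.104) and -0.44 ± 0.18 in Hom against Het (adjusted p = 0.162), neither of them called. Neo1, a Dcc relative that binds netrins and repulsive guidance molecules, differed by 0.15 ± 0.10 in Het and 0.09 ± 0.10 in Hom.

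Robo1, a Slit receptor, rose in Hom ganglia, in 3 of 4 arrays. It was at 6.29, 5.78, 5.77 and 7.35 in Wt, 6.53, 6.30, 6.01 and 6.40 in Het and 9.24, 6.51, 8.67 and 7.96 in Hom replicates 9 to 12. Hom replicate 10 lay among the Wt arrays, so the groups overlapped and the SD was 1.18 in Hom against 0.22 in Het. The difference was 1.80 ± 0.45 against Wt (adjusted p = 0.0191) and 1.78 ± 0.45 against Het (adjusted p = 0.0267), and 0.01 ± 0.45 in Het against Wt. Leaving out any 1 of Wt replicates 2 and 3 and Hom replicates 9 and 11 ended the first call (1.42 to 1.63, adjusted p = 0.0547 to 0.0648). Leaving out any 1 of Het replicates 6, 7 and 8 and Hom replicates 9 and 11 ended the second (1.40 to 1.81, adjusted p = 0.0613 to 0.0869). Both calls were also lost with no filter, with the compared arrays alone and with the methods' t-test. The highest adjusted p over all alternatives was 0.351 for the first and 0.178 for the second.

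Unc5d, another Unc5 receptor, had the same uneven spread over the Hom arrays, at 7.07, 2.99, 6.42 and 6.70. Wt arrays were at 2.25, 2.47, 2.26 and 5.61 and Het arrays at 3.91, 2.46, 2.66 and 3.17. Within Wt, replicate 4 was the highest array for both Unc5d and Robo1, and within Hom replicate 10 was the lowest for both. The Hom difference of 2.65 ± 0.81 for Unc5d was not called (adjusted p = 0.0566). It was called with array weights, without Wt replicate 4 and without Hom replicate 10. Wt replicate 4 is 1 of the 2 arrays with a raised sensory neuron median, and Hom replicate 10 had the highest fat marker median of the series (4.33). Wt replicate 1, the other array with a raised sensory neuron median, was at 2.25 for Unc5d and 6.29 for Robo1. The part of other tissue in these values was not tested. Without both P0 Wt replicates 1 and 4, Robo1 stayed called in Hom (2.32, adjusted p = 0.0106) and Unc5d was called too. Without Hom replicate 10 both were called against Wt and against Het.

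The Slit ligands were not called at birth. Slit2 was at 9.69, 9.56, 9.46 and 9.35 in Wt, 9.76, 9.96, 10.01 and 9.94 in Het and 9.78, 9.34, 9.63 and 8.54 in Hom. All Het arrays lay above all Wt arrays, and Hom replicate 12 was the lowest, but the differences of 0.40 ± 0.23 in Het and -0.19 ± 0.23 in Hom did not pass. Slit3 differed by -0.13 ± 0.12 in Het and -0.06 ± 0.12 in Hom. Robo4, an endothelial Robo, was not called either.

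Of 8 semaphorins tested, Sema4f was called in Hom and Sema5a in Het. Sema4f, a transmembrane semaphorin, was at 10.58, 10.34, 10.06 and 10.53 in Wt, 10.66, 10.62, 10.51 and 10.56 in Het and 11.23, 10.48, 11.21 and 10.84 in Hom. It was 0.56 ± 0.16 higher in Hom (adjusted p = 0.0351), again with Hom replicate 10 among the Wt values. This call was lost without any 1 of Wt replicates 2 and 3 and Hom replicates 9 and 11 (0.46 to 0.55, adjusted p = 0.0778 to 0.114), and with each array centred on its median. It was also lost with no filter, with the compared arrays alone and with the methods' t-test (highest adjusted p over all alternatives 0.345). Sema5a, a transmembrane semaphorin with thrombospondin repeats, was at 3.21, 4.01, 4.90 and 5.73 in Wt, at 2.77 to 2.79 in all 4 Het arrays and at 4.41, 4.57, 3.14 and 3.38 in Hom. The Het arrays were thus at the floor and the Wt arrays spread widely, so the difference of -1.69 ± 0.44 (adjusted p = 0.0495) is inexact in size. That call was lost under 21 of 27 alternatives, among them leaving out any 1 of 13 arrays, for example Wt replicates 2, 3 and 4 and each Het array (-1.84 to -1.27 over the 13, adjusted p = 0.0539 to 0.119). Sema3b, Sema3e and Sema4g differed by at most 0.31 in either direction.

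Of the ephrins and Eph receptors, which act where cells touch, Epha5 was called against Wt and Efnb2 between Hom and Het. Epha5, a receptor for class A ephrins, was at 9.22, 9.49, 9.44 and 9.57 in Wt, 9.09, 9.03, 9.19 and 9.24 in Het and 9.06, 8.73, 8.85 and 9.12 in Hom. The Hom arrays all lay below the Wt arrays, with a difference of -0.49 ± 0.10 (adjusted p = 0.00437), and the Het difference was -0.29 ± 0.10 (adjusted p = 0.124). The mean of both mutant groups fell by 0.39 ± 0.09 and kept its call under every alternative. The Hom call was lost when only the compared arrays were fitted and with the methods' t-test (adjusted p up to 0.141). Its ligand Efna5 differed by -0.07 ± 0.15 in Het and 0.24 ± 0.15 in Hom. Ephb6, an Eph receptor without kinase activity, differed by -0.53 ± 0.16 in Hom (adjusted p = 0.06), and Epha7 by -0.30 ± 0.16.

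Efnb2, a transmembrane ephrin, was another gene that was highest in Het, at 5.93, 6.17, 5.80 and 5.83, against 5.66, 5.77, 4.79 and 5.23 in Wt and 4.88, 4.92, 5.04 and 5.56 in Hom. From Het to Hom it fell by 0.83 ± 0.20 (adjusted p = 0.0193), while neither mutant differed from Wt at the threshold (0.57 ± 0.20 in Het and -0.26 ± 0.20 in Hom). Without Het replicate 6 or Hom replicate 9 the call was lost (-0.76 and -0.75, adjusted p = 0.0634 and 0.0644). It was also lost with the methods' t-test (adjusted p = 0.0738). Efnb1 and Efnb3 differed by 0.20 or less from Wt in both groups.

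The comparison of Hom against Het gave 4 calls among the 37 genes. Robo1 was higher, where 4.14% of all probe sets were called higher, and Efnb2, Plxnb1 and Nrp1 were lower, where 3.25% were called lower. With each array centred on its median, these shares became 2.77% higher and 5.72% lower, and the same 4 genes were called. The median of the 37 was -0.07, against -0.01 over all probe sets. With array weights 11 genes were called, and leaving out Hom replicate 9 left 1, Nrp1, while leaving out any 1 of Het replicates 6, 7 and 8 left 2 genes.

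**Figure D2:**
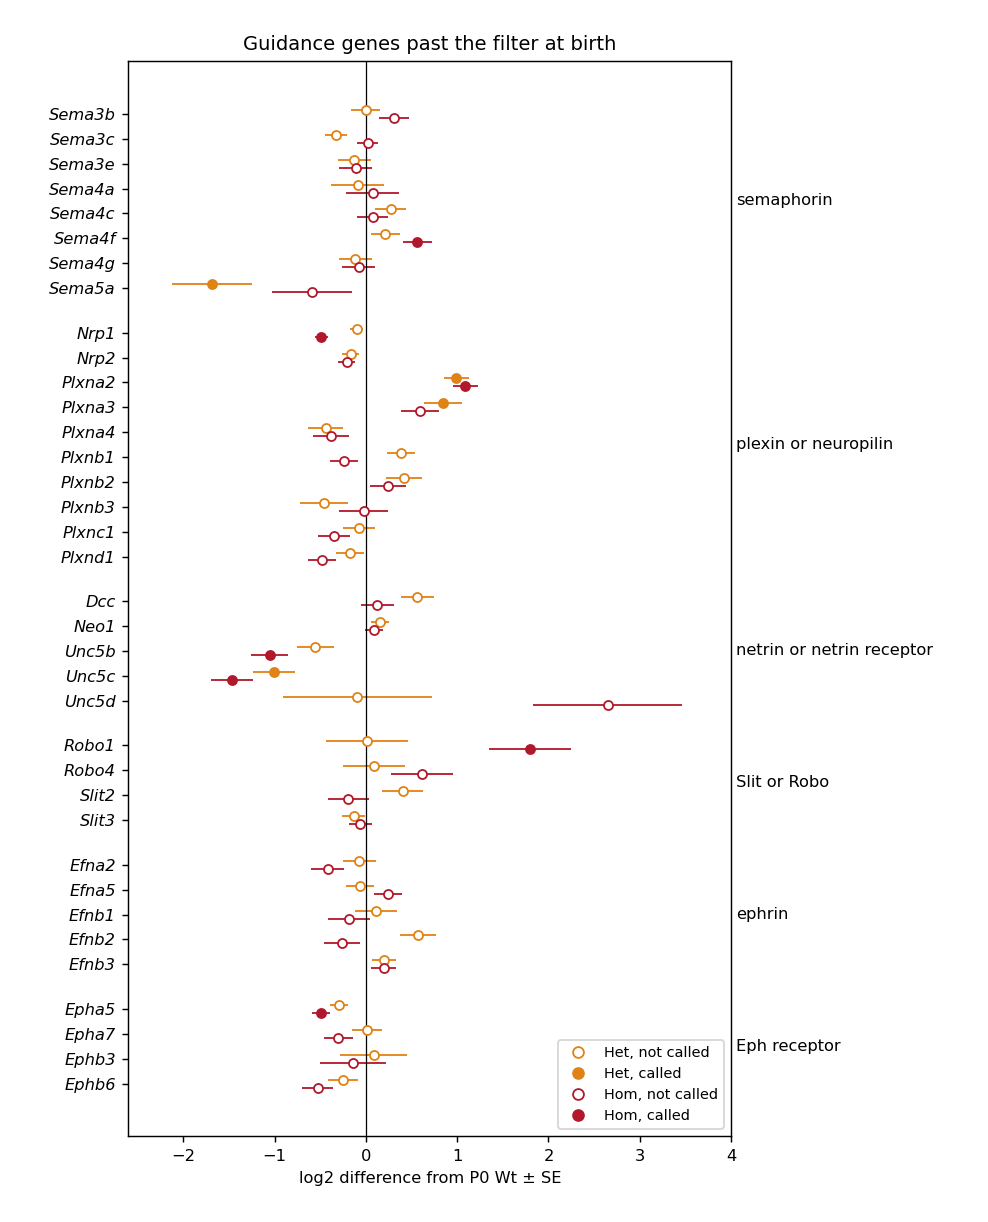
Log2 difference from P0 Wt (horizontal axis, points, with bars for ± SE) of the 36 tested guidance genes in Het (orange) and Hom (red) ganglia at birth, grouped by family. Filled points passed the test at an adjusted p under 0.05, and the genes farthest from 0 are Unc5d, Robo1 and Plxna2 on the higher side and Sema5a, Unc5c and Unc5b on the lower side.

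The marker medians differed between the genotypes at birth, with partial overlap, as given above. The calls were recomputed with the muscle, fat and glia medians of each array as covariates. The fibroblast and macrophage medians were not among these, and their part was not tested. Plxna2, Epha5 and Unc5c stayed called for the mean of both mutant groups. The differences of Unc5b (-0.75 ± 0.24, adjusted p = 0.147), Nrp1 (-0.31 ± 0.08, adjusted p = 0.0604) and Plxna3 (0.74 ± 0.21, adjusted p = 0.09) were no longer called, where they had been -0.80, -0.29 and 0.72 without covariates. For Hom against Wt, Plxna2, Unc5b, Unc5c, Nrp1 and Epha5 stayed called, Ephb6 was gained and Robo1 (1.66 ± 0.46, adjusted p = 0.0556) and Sema4f (0.55 ± 0.18, adjusted p = 0.103) were lost. For Het against Wt, Plxna2 stayed called, Epha5 was gained, and Plxna3 (0.89 ± 0.24, adjusted p = 0.0946), Unc5c (-1.07 ± 0.27, adjusted p = 0.0793) and Sema5a (-1.86 ± 0.47, adjusted p = 0.0764) were lost. Without P0 Wt replicates 1 and 4, the arrays with a raised sensory neuron median, all 7 Hom calls stayed. Plxna3 lost its call in Het and in the mean of both mutant groups. Plxna4 was gained as lower in Het, in Hom and in the mean of both mutant groups. Unc5b was gained as lower in Het and Unc5d as higher in Hom.

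Genes that act downstream of these receptors in the growth cone were counted beside them. Of 48 effectors listed, 41 were on the array and 31 were tested. In Het against Wt 0 of the 31 were called in limma, with 2 higher and 1 lower at p under 0.05 before adjustment, which 1829 of all 9973 probe sets reached. In Hom against Wt 1 was called higher and 2 lower, where 5.16% of all probe sets were called higher and 3.34% lower. Chn2, which encodes beta-chimaerin, a Rac inhibitor that acts downstream of Nrp2 in mice, rose by 3.70 ± 0.46 in Hom (adjusted p = 6.19e-05). Mical1, an actin-oxidising enzyme that binds plexins, fell by 0.45 ± 0.13 (adjusted p = 0.0344) and the actin-binding gene Ablim1 fell by 0.56 ± 0.13 (adjusted p = 0.0101). The median of the 31 was 0.01 in Hom, as was that of all probe sets.

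Among guidance cues and coreceptors outside the families above, 21 of 34 listed were tested. In Het 2 were higher and 1 lower, where 1.8% of all probe sets were called higher and 1.3% lower. In Hom 5 were higher and 2 lower, where 5.16% of all were called higher and 3.34% lower. Islr2, a neuronal membrane protein of axon extension, rose by 1.71 ± 0.28 in Het (adjusted p = 0.00355) and 1.60 ± 0.28 in Hom (adjusted p = 0.00147). The contactin gene Cntn4 rose by 1.85 ± 0.41 and 2.39 ± 0.41, and Cntn1, another contactin, fell by 0.78 ± 0.12 and by 0.92 ± 0.12. In Hom, Flrt2, whose protein binds Unc5 receptors, rose by 0.72 ± 0.18 (adjusted p = 0.0167), and Rgmb, a ligand of neogenin, by 0.47 ± 0.12 (adjusted p = 0.0237). Chl1, an L1-family adhesion molecule that associates with Nrp1, fell by 0.46 ± 0.11 (adjusted p = 0.0128), and Kdr, a growth factor receptor gene that is also 1 of the endothelial markers, rose by 0.75 ± 0.21 (adjusted p = 0.0328). From Het to Hom, Wnt5a rose by 1.23 ± 0.31 and Flrt3 by 1.12 ± 0.28 (adjusted p = 0.0278 for each).

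At P18, 0 of the 37 genes was called in Het (n = 2) against Wt (n = 3) in limma, where 0.211% of all probe sets were called higher and 0.0501% lower. Before adjustment, p fell under 0.05 for 5 genes with higher and 1 with lower values in Het, beside 7.8% of all probe sets, and the methods' t-test called 0. Those 5 were Sema4c (0.70 ± 0.22), Slit2 (0.67 ± 0.29), Plxnb2 (0.64 ± 0.25), Plxnb1 (0.48 ± 0.20) and Nrp2 (0.26 ± 0.12). The 1 with lower values was Nrp1, at 10.06, 9.93 and 9.85 in Wt and 9.82 and 9.60 in Het, a difference of -0.24 ± 0.09 (adjusted p = 0.5) that was called with array weights. Plxna2 was at 4.72, 4.66 and 4.46 in Wt and 4.79 and 4.89 in Het. Both Het arrays lay above the Wt arrays, and the difference was 0.23 with a 95% interval from -0.15 to 0.61. Unc5c differed by -0.47 (-1.10 to 0.16), Unc5b by 0.07 (-0.49 to 0.62) and Plxna3 by 0.19 (-0.37 to 0.75). These intervals are wide because of the 5 arrays, and they overlap those at birth for Unc5c, Unc5b and Plxna3.

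The test of the change itself, in which the Het effect at P0 was subtracted from that at P18, called 0 of the 37 genes in limma, beside 0.0802% of all probe sets higher and 0.0602% lower (0.0802% and 0.1% after centring each array on its median). Before adjustment, 3 genes above 0 and 2 below 0 had a p under 0.05, beside 9.92% of all probe sets. The 3 above were Sema5a (1.81 ± 0.72), Plxnb3 (1.01 ± 0.43) and Nrp2 (0.43 ± 0.15). The 2 below were Dcc (-0.87 ± 0.29, adjusted p = 0.311) and Plxna2 (-0.76 ± 0.23, adjusted p = 0.23), both of them called with array weights. For Dcc, all Het arrays lay above all Wt arrays at birth, while at P18 both Het arrays (6.38 and 6.40) lay below all Wt arrays (6.74, 6.72 and 6.66). The Het effects at the 2 ages were therefore not shown to differ for any guidance gene in the model without weights.

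**Figure D3:**
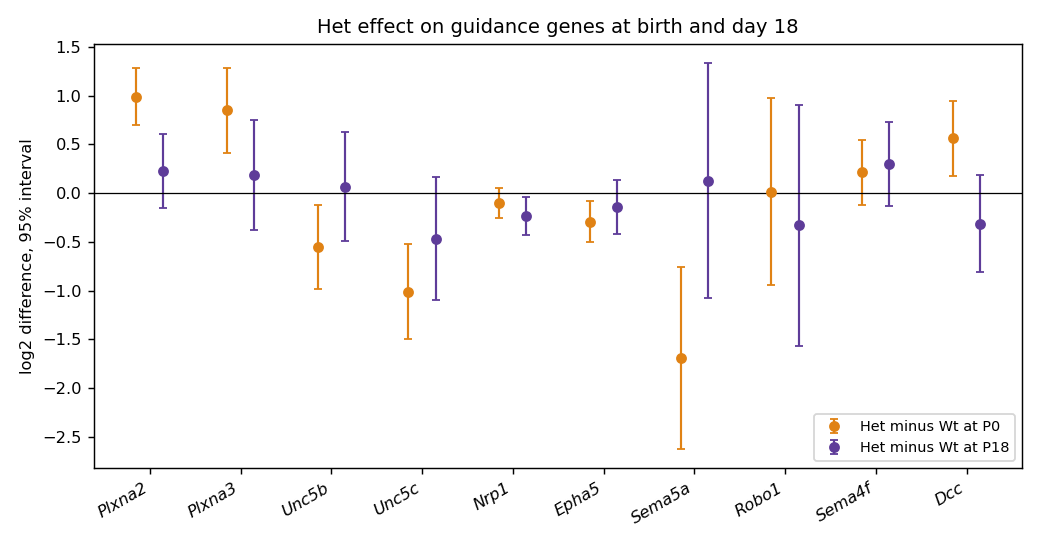
Het minus Wt log2 difference (vertical axis) with its 95% interval for 10 guidance genes, at P0 (orange, n = 4 and 4) and at P18 (purple, n = 2 Het and 3 Wt). The interval of Plxna2 at P0 (0.69 to 1.28) does not overlap its interval at P18 (-0.15 to 0.61), and Dcc lies on opposite sides of 0.

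With age, the guidance genes called in Wt ganglia were mostly lower. Of the 37, 24 were called between P0 and P18, 4 higher and 20 lower. Among the 24, Sema3e, Efna2, Robo4 and Sema5a passed the filter only through arrays of the age at which they were higher. The filter thus favoured the direction of these calls. These are 64.9% of the 37, beside 54.9% of all probe sets, of which 27.9% were called higher and 27.0% lower. The median difference of the 37 was -0.63, against 0.01 over all probe sets. Age and any batch of hybridisation cannot be told apart, and the fibroblast, endothelial and mural marker medians of all P18 arrays lay below those of all P0 arrays. Not every marker followed its median. The fibroblast markers Dcn (12.90 to 13.52 at P18) and Lum (9.88 to 10.48 in P18 Wt) lay above all P0 arrays, which reached 12.61 and 9.71. The endothelial marker Egfl7 and the mural marker Rgs5 overlapped between the ages. The sympathetic neuron median was between -0.23 and 0.04 in the Wt arrays at birth and between 0.48 and 0.53 at P18. The part of cell composition in each gene was not tested beyond the muscle, fat and glia covariates, with which 21 genes were called, 20 of them among the 24.

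**Figure D4:**
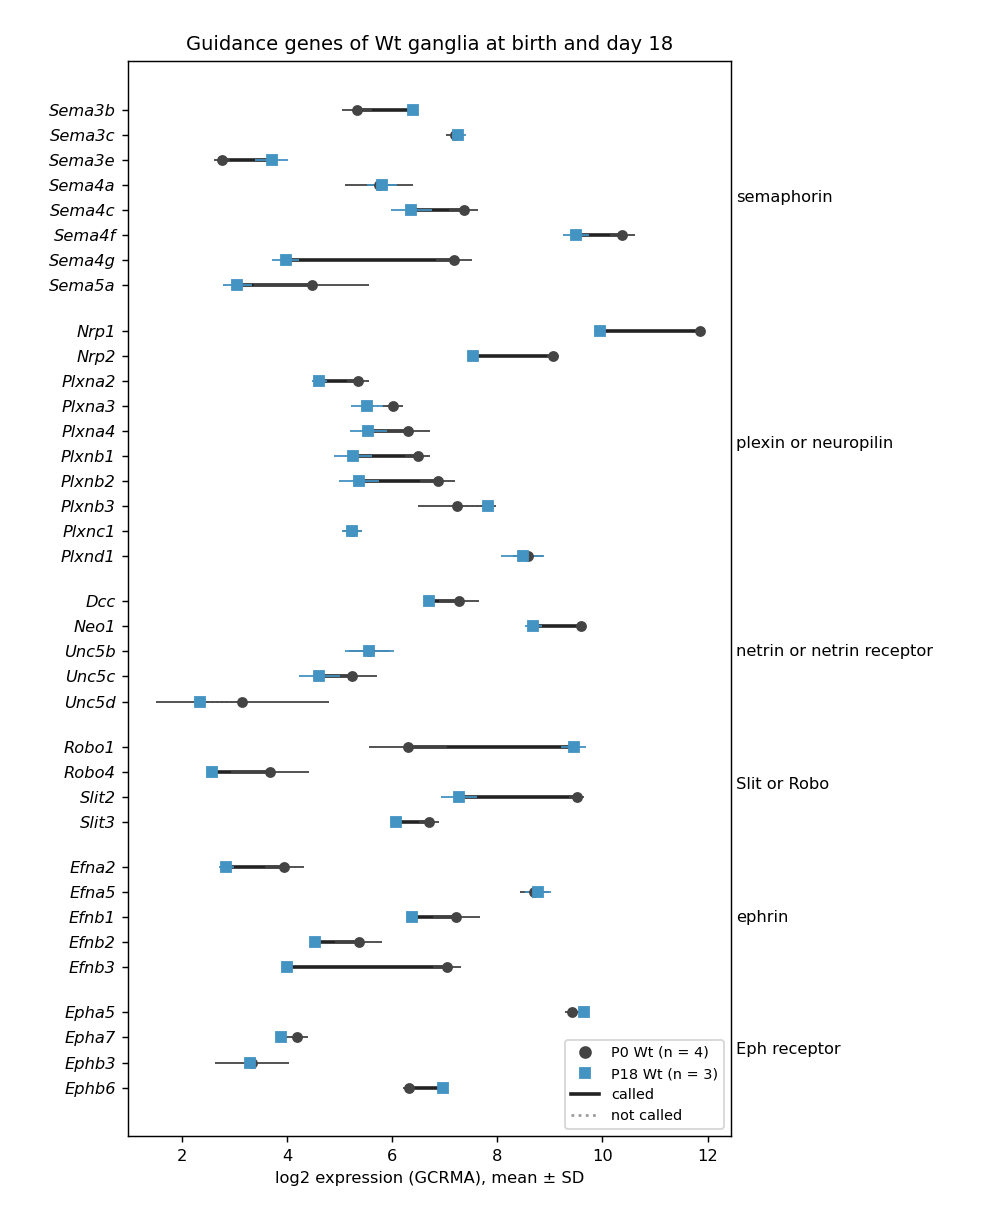
Log2 expression (horizontal axis, GCRMA values) of the 36 tested guidance genes in Wt ganglia at P0 (grey circles, n = 4) and P18 (blue squares, n = 3), as group means with thin bars for ± SD and a solid line where the age difference was called. Sema4g and Efnb3 drop from near 7 to about 4, while Robo1 moves the other way from 6.30 to 9.46.

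Of the semaphorin receptors, 6 of 10 plexins and neuropilins were called lower with age and none was called higher. Nrp1 went from 11.86 ± 0.07 (SD, n = 4) to 9.95 ± 0.11 (n = 3), so it fell by 1.91 ± 0.08 (SE, adjusted p = 4.19e-11) or 3.77-fold. Nrp2 fell by 1.53 ± 0.10 (adjusted p = 7.04e-09). The class B plexins Plxnb2 and Plxnb1 fell by 1.49 ± 0.21 and by 1.23 ± 0.17, and the class A plexins Plxna4 and Plxna2 by 0.75 ± 0.21 and by 0.73 ± 0.15. Plxna3 differed by -0.50 ± 0.22 and was not called (adjusted p = 0.0683), and Plxnc1, which binds Sema7a, by 0.00 ± 0.19. Plxnb3, another class B plexin, was 0.59 ± 0.29 higher at P18 and not called (adjusted p = 0.0925), but it was called higher with median centring, with array weights and without P0 Wt replicate 3. The Plxna4 call was lost without P18 Wt replicate 3 (-0.55, adjusted p = 0.0516).

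The semaphorins moved both ways. Sema4g, a class 4 semaphorin, was at 7.05, 7.34, 7.55 and 6.78 at birth and at 4.02, 4.19 and 3.70 at P18, so it fell by 3.21 ± 0.20 (adjusted p = 3.13e-09) to near the floor. Sema4c fell by 1.004 ± 0.18, Sema4f fell by 0.89 ± 0.17 and Sema5a fell by 1.42 ± 0.47. Sema3b, a secreted class 3 semaphorin, rose by 1.06 ± 0.17 (adjusted p = 9.43e-05), from 5.56, 5.01, 5.56 and 5.19 to 6.44, 6.36 and 6.37. Sema3e rose by 0.94 ± 0.19 but stayed at 4.01 or below in all Wt arrays. The Sema5a call was lost without any 1 of P0 Wt replicate 4 and P18 Wt replicates 2 and 3 (-1.39 to -0.996, adjusted p = 0.0532 to 0.0654).

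In the Slit and Robo system, the receptor Robo1 rose and the ligands fell. Robo1 was at 9.66, 9.51 and 9.20 at P18, above every Wt array at birth, a rise of 3.16 ± 0.49 (adjusted p = 5.13e-05) or 8.94-fold. Of these 3 arrays, 2 lay above the highest Hom array at birth (9.24). Slit2 fell by 2.24 ± 0.25 (adjusted p = 1.7e-06), from 9.51 ± 0.14 to 7.27 ± 0.34 (SD), and Slit3 by 0.63 ± 0.13. The endothelial receptor gene Robo4 fell by 1.10 ± 0.37, from a mean of 3.68 to 2.57, and its call was lost without any 1 of P0 Wt replicates 2 and 3 and P18 Wt replicate 1 (-1.06 to -0.91, adjusted p = 0.0531 to 0.0552).

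Among the netrin receptors, Neo1 fell by 0.90 ± 0.11 (adjusted p = 5e-06), Dcc by 0.56 ± 0.20 and Unc5c by 0.62 ± 0.25 (adjusted p = 0.0442), whereas Unc5b differed by 0.00 ± 0.22. The Unc5b mean was 5.57 at birth and 5.56 at P18. The Dcc call was lost without any 1 of P0 Wt replicates 1 and 2 and P18 Wt replicates 2 and 3 (-0.57 to -0.43, adjusted p = 0.0512 to 0.0731). The Unc5c call was lost without any 1 of 9 arrays, among them P0 Wt replicates 3 and 4 and P18 Wt replicates 1 and 3 (-0.62 to -0.40 over the 9, adjusted p = 0.0502 to 0.166).

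Of the 5 ephrins tested, 4 were called lower with age, while none of the 4 Eph receptors tested was called lower. Efnb3, a transmembrane ephrin, was at 6.89, 7.28, 7.24 and 6.75 at birth and at 4.01, 3.95 and 4.01 at P18, so it fell by 3.05 ± 0.14 (adjusted p = 2.18e-10) or 8.27-fold. Efna2 fell by 1.10 ± 0.20, Efnb1 by 0.84 ± 0.25 and Efnb2 by 0.83 ± 0.21, and Efna5 differed by 0.07 ± 0.16. Ephb6 rose by 0.65 ± 0.18 (adjusted p = 0.00561). Epha5 differed by 0.21 ± 0.11, Epha7 by -0.30 ± 0.17 and neither was called.

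Growth cone effectors also fell with age more often than they rose. Of the 31 tested, 16 fell and 4 rose, with a median of -0.30, where 27.0% of all probe sets were called lower and 27.9% higher. Among those that fell were the collapsin response mediator genes Crmp1 (-1.90 ± 0.13) and Dpysl3 (-1.32 ± 0.14), Mical1 (-2.36 ± 0.14), the plexin-binding exchange factor gene Farp1 (-2.07 ± 0.21) and the kinase gene Fyn (-1.69 ± 0.10). Rnd1, a small GTPase that binds plexins, rose by 3.58 ± 0.19 and Chn2 by 2.73 ± 0.49. Of the 21 other cues and coreceptors, 6 rose and 7 fell, which is near the shares of all probe sets (27.9% higher and 27.0% lower). Ntng1 rose by 1.25 ± 0.12, Cntn1 by 1.11 ± 0.13 and Nrcam by 0.91 ± 0.09, and Kdr fell by 2.33 ± 0.22, Islr2 by 1.81 ± 0.30 and Cntn4 by 1.60 ± 0.44.

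Several genes changed with age and with genotype, and values of some of them are set side by side without a test, since the comparisons share the P0 Wt arrays. Plxna2 fell by 0.73 with age in Wt and was 1.09 higher in Hom at birth. Nrp1 fell by 1.91 with age and by 0.49 in Hom. Unc5c fell by 0.62 with age and by 1.47 in Hom, while Sema4f fell with age and was 0.56 higher in Hom. Robo1 rose by 3.16 with age and was 1.80 higher in Hom, and Chn2 by 2.73 and 3.70. Islr2 and Cntn4 fell with age and were higher in Hom, while Cntn1 and Chl1 rose with age (1.11 and 0.85) and were lower in Hom.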

How the data were processed

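The authors normalised the arrays by GCRMA with Brainarray gene definitions, and deposited 1 log2 value for each gene and array. The version and whether all arrays were normalised together are not given in the sources used here. Per the study's methods, RNA of the pooled ganglia was extracted with Trizol, while the labels name a kit for tumours. No batch or scan date was given, and at birth arrays are numbered in blocks by genotype. No column was left unmapped. Array data hold no counts, so the number of arrays limits precision.

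Symbols came from RefSeq by gene identifier, or from the platform annotation where RefSeq gave none, with 16464 probe sets carrying 1 symbol and 842 none. The rule itself was applied to the platform symbols. Probe sets above log2 4 in at least 2 of 17 arrays (9973) entered 1 fit in limma 3.58.1 (R 4.3.3), with 1 mean per group over all 17 arrays, no covariate, eBayes with trend and robust, two-sided, and Benjamini-Hochberg adjustment over the 9973. Calls had an adjusted p under 0.05. Differences are given ± SE of the fit, and group means ± SD. The text names, for each contrast, the called genes of the rule (up to 8 rises and 8 falls) and 26 genes of known role, with others chosen after their values were seen (Unc5d, Robo4, Efna2, Epha3, Plxnd1, Sema4c, Unc5a, Plxna1 and Plxnb3). Members, lists and markers were chosen with earlier results of these data known.

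Alternatives were no filter and a stricter one (log2 above 6), plain eBayes, quantile normalisation, median centring, the compared arrays alone, array weights, the methods' t-test, leaving out arrays, marker covariates and a replicate block. The scripts were tested on simulated data.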

Additional observations from a re-analysis of the deposited data

Results flagged for a closer look

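Of 81 groups of 4 arrays at birth tested for a single array far from the rest, 1 stood out, and chance alone gives about 1 in 20. It was Neo1 in P0 Wt replicate 2, at 9.70, where the other Wt arrays lay between 9.54 and 9.55. The Het effect on Dcc differed in direction between ages. All 4 Het arrays lay above all Wt arrays at birth and both Het arrays below all Wt arrays at P18, and the difference between the effects was -0.87, which did not pass in limma (adjusted p = 0.311) and passed with array weights.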

How the results depend on the processing

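Of 45 called differences of the rule's genes, 23 were called under every alternative that could be run, 22 lost their call under 1 or more of the 29 settings and 0 changed sign. For Het against Wt at birth, 2 genes were called with no filter, with the stricter filter, without both Wt replicate 3 and Hom replicate 12 of P0, and with marker covariates, against 1 with the compared arrays alone and 1 with the methods' t-test (4 in the report). For Hom against Wt, the compared arrays alone gave 4, array weights 12 and the methods' t-test 2 (7 in the report). Array weights gave 11 for Hom against Het (4 in the report), 1 for Het at P18 and 2 for the change of the Het effect with age (0 in the report for both). The mean of both mutant groups gave 3 with marker covariates (6 in the report). Leaving out each array in turn gave 5 to 8 for the mean of both mutant groups, 1 to 5 for Het, 5 to 9 for Hom, 1 to 6 for Hom against Het, 20 to 25 for age and 0 for both comparisons with P18 Het. Where 1 P18 Het array was left, it was assumed to vary like the other groups. The causes were not tested. Effectors and other cues were recounted as lists under the alternatives, without results for single genes. With the marker covariates, 1 effector was called in Hom against Wt, where the report had 1 higher and 2 lower. Of the other cues 5 were called in Hom, where the report had 5 higher and 2 lower.

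P0 and P18 Wt arrays share numbers 1 to 3, which come from different animals of different ages and do not pair. Deviations of same-numbered arrays correlated at -0.01, 0.07 and -0.12. With the number as a replicate block, 21 genes were called with age, 20 of them among the 24, without Dcc, Sema5a, Unc5c and Plxna4. The few arrays, at most 4 a group, and values near the floor limit the size of differences of Unc5c, Sema5a, Unc5d, Sema3e and Robo4.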
